A study of Mus musculus with 15 samples.

Results

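The integrated stress response was read through 7 mouse genes, Atf4, Ddit3, Cebpg, Atf3, Ppp1r15a, Trib3 and Asns, by taking every probe set that the array annotation assigns to 1 of these symbols alone. That rule gave 10 of the 12422 probe sets that are not controls, and 7 of the 8251 genes that the array names in this way. A signal filter, described under the processing, was passed by 6963 probe sets for 5338 genes, and by 9 of the 10. Asns has 2 probe sets, Atf3 has 3 and the other genes have 1 each. Total RNA came from NIH 3T3 cells, an immortal line of mouse fibroblasts, and was hybridised to 15 Affymetrix MG_74Av2 oligonucleotide arrays, 3 for each of 5 groups. Cells of the group called vector carried the plasmid pMTCB6+ without an insert. The other groups carried the same plasmid with a human C/EBP cDNA behind its zinc-inducible promoter, C/EBPα in alpha, C/EBPβ in beta, C/EBPδ in delta and C/EBPε in epsilon. All 5 groups were polyclonal transfectants selected with G418, and all of them, vector included, had been given zinc sulphate for 16 h before lysis. Every comparison is therefore between zinc-treated cultures that keep the C/EBP genes of the mouse cell, and the response of these genes to zinc itself was not measured. The labels ask which genes differ between the 5 sets.

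The integrated stress response begins when a stress kinase phosphorylates the translation initiation factor eIF2. Protein synthesis then slows in general, while the mRNA of the bZIP transcription factor ATF4 is translated more. ATF4 pairs with other bZIP proteins, among them C/EBPγ, the product of Cebpg, and binds composite sites known as C/EBP-ATF response elements. Its targets serve amino acid synthesis, transport and tRNA charging, and include the factor CHOP, the product of Ddit3. CHOP is a member of the C/EBP family that dimerises with other C/EBPs and keeps them from their usual sites. Because ATF4 is controlled largely at translation, the amount of its mRNA need not follow the amount of its protein.

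The sequences before the RefSeq start sites of 5 of these genes are printed. Of these, 4, all but Atf3, fell in both alpha and epsilon by their brightest probe set. Known ATF4 sites lie near the start of some of them. Trib3 also fell in both groups, but its sequence is not printed. All 7 genes matched an entry of the RefSeq promoter table (GRCm38.p6), and the 250 bases before the start were searched on both strands. Capitals mark matches to the C/EBP-ATF response element, searched as TGATGNAA, to the cyclic AMP response element, TGACGTCA, and to the AP-1 site, TGANTCA.
Asns, chr6:7693210-7693459, - strand: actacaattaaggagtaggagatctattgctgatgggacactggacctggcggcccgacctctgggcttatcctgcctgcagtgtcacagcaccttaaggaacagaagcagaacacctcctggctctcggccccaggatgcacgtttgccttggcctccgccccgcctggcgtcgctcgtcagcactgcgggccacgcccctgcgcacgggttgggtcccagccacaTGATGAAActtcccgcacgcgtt
Atf3, chr1:191183334-191183583, - strand: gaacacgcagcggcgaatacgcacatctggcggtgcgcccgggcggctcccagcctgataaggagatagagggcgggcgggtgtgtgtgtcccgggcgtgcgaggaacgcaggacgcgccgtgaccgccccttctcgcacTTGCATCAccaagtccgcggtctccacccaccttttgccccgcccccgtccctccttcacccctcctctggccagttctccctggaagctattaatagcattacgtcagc
Ppp1r15a, chr7:45526269-45526518, - strand: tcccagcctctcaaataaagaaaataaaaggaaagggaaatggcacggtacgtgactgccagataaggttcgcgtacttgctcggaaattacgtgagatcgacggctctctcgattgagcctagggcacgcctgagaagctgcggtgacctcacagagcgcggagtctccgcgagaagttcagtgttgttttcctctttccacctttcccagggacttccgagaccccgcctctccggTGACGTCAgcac
Ddit3, chr10:127290543-127290792, + strand: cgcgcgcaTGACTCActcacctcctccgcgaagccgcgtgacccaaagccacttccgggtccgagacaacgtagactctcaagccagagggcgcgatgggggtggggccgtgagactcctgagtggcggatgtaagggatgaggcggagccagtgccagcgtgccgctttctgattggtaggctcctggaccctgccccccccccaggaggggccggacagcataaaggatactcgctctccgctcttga
Cebpg, chr7:35056567-35056816, - strand: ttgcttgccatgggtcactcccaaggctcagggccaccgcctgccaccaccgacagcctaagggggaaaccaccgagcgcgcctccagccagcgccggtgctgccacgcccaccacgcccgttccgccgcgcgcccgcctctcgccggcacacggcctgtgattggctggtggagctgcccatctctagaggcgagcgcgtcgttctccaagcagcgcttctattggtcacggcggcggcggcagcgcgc
The C/EBP-ATF letters were found before Asns, 23 to 16 bases from the start, and on the opposite strand before Atf3, 110 to 103 bases from it, and in 3.45% of all 32851 promoter windows of that length. The cyclic AMP response element lay 12 to 5 bases before the start of Ppp1r15a and occurs in 1.55% of windows. The AP-1 letters lay 242 to 236 bases before the start of Ddit3, and 6.75% of windows hold them. A general C/EBP motif, TTNNGNAA, was matched before Asns alone among the 7 genes and is in 36.8% of windows. The heat shock element, in 0.466% of windows, and the endoplasmic reticulum stress element, in 0.113%, were matched before none of the 7. The metal response element was searched in a loose form, TGCNCNC, which 44.4% of windows hold, so a match to it says little. These letters were the 1 motif matched before Atf4, and were also matched before Asns, Atf3 and Ddit3. None of the motifs was matched before Cebpg or Trib3. None of the matches overlapped a match to another motif.

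The arrays lay close together in their medians and correlations. Array medians of the deposited values lay between 992.25 and 1149.7 units, and log2 values correlated at 0.929 to 0.965 within groups and at 0.88 to 0.961 between them. The ratio of the 3′ to the 5′ control probe set of actin, a sign of RNA integrity, was 1.11 to 1.41 in vector, 1.02 to 1.25 in alpha, 1.05 to 1.15 in beta, 1.16 to 1.27 in delta and 1.11 to 1.44 in epsilon. That of Gapdh was 0.897 to 0.937 in vector and 0.966 to 0.986 in epsilon, with the other groups between 0.891 and 0.982, and its part in the epsilon results was not tested. Of 10 fibroblast markers, 9 passed the filter, with the collagen gene Col1a1 between 13840 and 46950 units. Vim, a general mesenchymal marker, read 426.9 to 1184 and failed the filter, since too few arrays exceeded 1092.06. Of the markers of fat cells, leukocytes, epithelium and liver on the array, 15 of 20 lay under the filter, including Adipoq, Fabp4, Ptprc, Epcam and Alb. The 5 past it were Lep, Cd68, Lyz2, Cdh1 and Cyp2e1. The summed signal of the 5 leukocyte markers was 4235 to 5009 in vector, 3636 to 4027 in alpha, 2798 to 3580 in beta, 3780 to 4274 in delta and 2105 to 2812 in epsilon, so it moved in part with the genes described here. Cd68 had group means of 3103, 766.4, 1552, 2811 and 1121 in the same order, and Lyz2, the other leukocyte marker past the filter, went the opposite way in alpha, with 656.3, 2418, 877, 663.6 and 768.4. The pan-leukocyte gene Ptprc stayed at or below 444 on every array; the part of these markers in the results was not tested.

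Ddit3, Ppp1r15a and Trib3 fell in alpha, in beta and in epsilon, to between 7.87% and 41.8% of the vector mean. Cebpg and Asns fell in alpha and in epsilon by 1.52-fold to 1.91-fold, and Atf4 fell in epsilon by 1.29-fold. In delta none of the 7 genes was called in either direction. With each gene read by its brightest probe set past the filter, 5 of 7 genes were lower in alpha, 3 in beta, 0 in delta and 6 in epsilon, and 0 were higher in any of them (limma, Benjamini-Hochberg adjusted p under 0.05). Over all probe sets tested, 7.15% were called lower in alpha, 4.18% in beta, 0% in delta and 6.91% in epsilon. The median log2 difference of the 7 genes was -0.62 in alpha, -0.48 in beta, -0.10 in delta and -0.93 in epsilon, where the medians over all probe sets were 0.004, 0.035, 0.012 and 0.076. All 3 arrays lay below all vector arrays for 6 of the 7 genes in alpha, 6 in beta, 2 in delta and 7 in epsilon, against 13.7%, 11.7%, 4.77% and 11.8% of the probe sets tested. The 4 comparisons share the same 3 vector arrays, so their agreement is not independent. In these bulk cultures, fewer cells with a transcript and less of it per cell cannot be told apart.

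**Figure D1:**
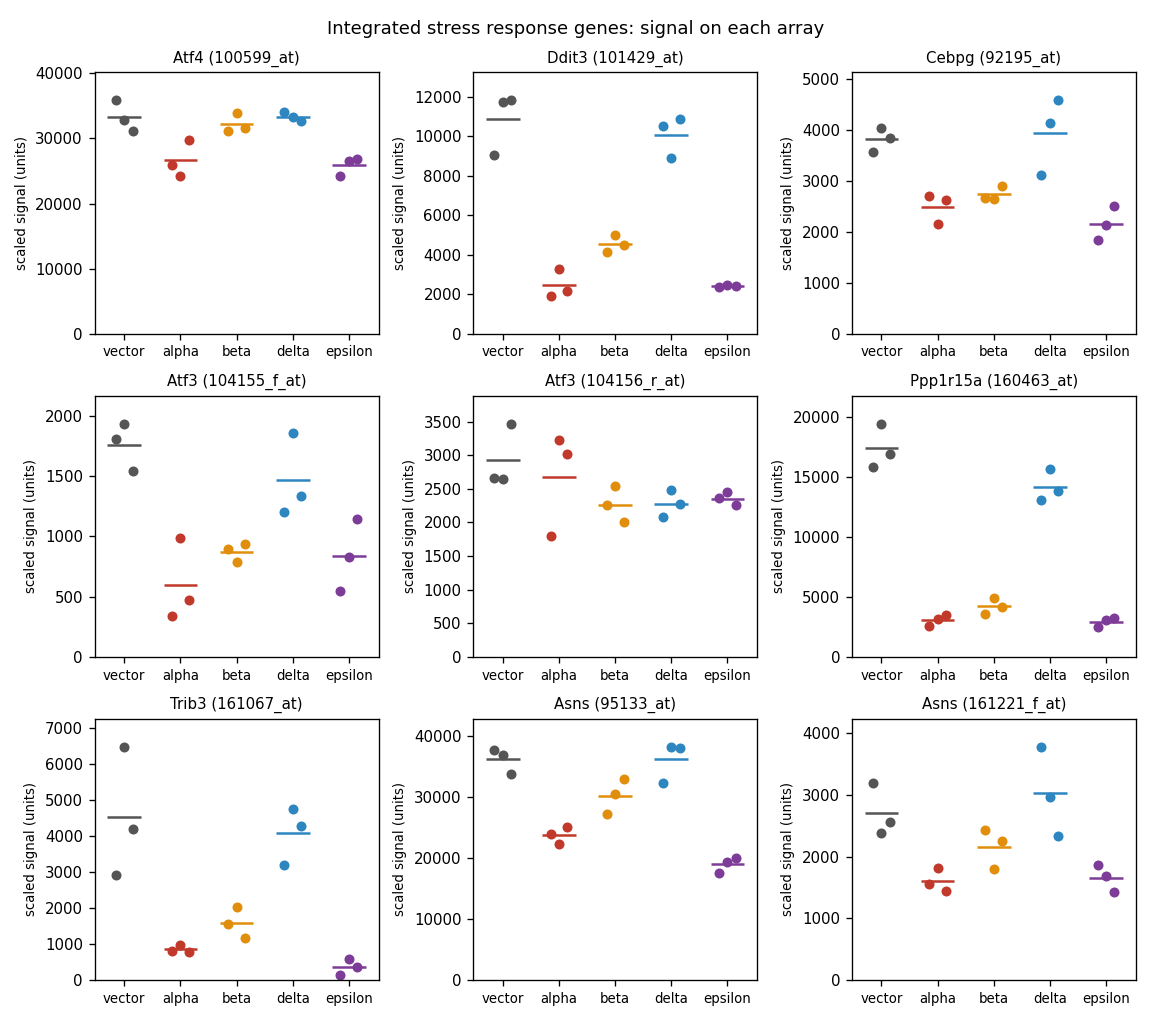
Scaled signal (units, vertical axis from 0) of the 9 probe sets past the filter on each of the 15 arrays, by group; points are arrays and lines are means over 3 arrays. Ddit3, Ppp1r15a and Trib3 are lower in alpha, beta and epsilon than in vector and delta. For Ddit3 the means are 10870 in vector and 2453, 4539, 10080 and 2423 in the other groups. The delta arrays of Ppp1r15a all lie below those of vector.

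Atf4 encodes the transcription factor at the centre of the response. Its signal was 35850, 32780 and 31220 units on the vector arrays, 25980, 24170 and 29840 in alpha, 31170, 33840 and 31630 in beta, 34000, 33300 and 32660 in delta, and 24190, 26590 and 26880 in epsilon. The alpha and epsilon arrays lay below every vector array, whereas beta and delta overlapped with vector. Atf4 fell in epsilon by 0.36 on the log2 scale (SE 0.11, adjusted p = 0.0367). In alpha it read -0.32 (SE 0.11) and missed the threshold (adjusted p = 0.0684). The 95% intervals were -0.28 to 0.19 in beta and -0.23 to 0.24 in delta. Set directly against epsilon, Atf4 read 0.32 higher in beta and 0.37 higher in delta. Neither difference was called (limma adjusted p = 0.196 and 0.057). The epsilon call was lost without vector replicate 1, 2 or 3 (adjusted p = 0.135, 0.0541 and 0.0554), epsilon replicate 1, 2 or 3 (0.1, 0.0622 and 0.0679), beta replicate 3 (0.0532) or delta replicate 3 (0.0543). It was also lost with quantile normalization (0.0606), with only epsilon and vector in the fit (0.152) and when the 5 arrays numbered 1 were dropped (0.272), while in alpha Atf4 passed without alpha replicate 3 (0.0407), with no further scaling (0.0316), with scaling by the median ratio to the mean array (0.0287) and with no filter (0.0335).

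Cebpg encodes C/EBPγ, a small bZIP protein without an activation domain that pairs with ATF4 and with the C/EBPs. Its signal was 3579, 4042 and 3850 units in vector, 2700, 2157 and 2633 in alpha, 2660, 2654 and 2899 in beta, 3110, 4133 and 4584 in delta, and 1845, 2128 and 2514 in epsilon. The arrays of alpha, beta and epsilon lay below every vector array, and those of delta spread over a wider range than vector on both sides. Cebpg fell in epsilon by 0.83 on the log2 scale (SE 0.16, 1.78-fold, adjusted p = 0.00198) and in alpha by 0.62 (SE 0.16, 1.54-fold, adjusted p = 0.0147). The alpha call rested on alpha replicate 2, the lowest array of that group (adjusted p = 0.0724 without it). The beta arrays gave -0.48 without passing (adjusted p = 0.074), but the difference did pass with quantile normalization (0.0316), no further scaling (0.0436), the median ratio (0.0475) and array weights (0.0423). In delta the difference was 0.03, with a 95% interval of -0.32 to 0.37.

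Ddit3 encodes CHOP, which blocks C/EBP binding and promotes cell death under lasting stress. Its signal was 9045, 11740 and 11810 units in vector, 1930, 3281 and 2147 in alpha, 4162, 4982 and 4474 in beta, 10490, 8873 and 10860 in delta, and 2353, 2481 and 2436 in epsilon. The groups formed 3 levels that did not overlap: vector with delta, then beta, then alpha with epsilon. Ddit3 fell 4.52-fold in alpha (log2 -2.18, SE 0.18, adjusted p = 1.92e-07), 2.38-fold in beta (log2 -1.25, SE 0.18, adjusted p = 0.000227) and 4.45-fold in epsilon (log2 -2.15, SE 0.18, adjusted p = 2.16e-07). In delta it read -0.10, with an interval of -0.47 to 0.27 (adjusted p = 0.996). These calls were kept in all 15 fits that left out 1 array and under all the alternatives tried.

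Atf3 encodes a bZIP repressor that stress induces downstream of ATF4, and its probe sets disagreed. The f_at probe set read 1812, 1937 and 1541 units in vector, 343.5, 987.7 and 471.6 in alpha, 893.9, 784.4 and 935.1 in beta, 1203, 1862 and 1340 in delta, and 546.6, 828.6 and 1146 in epsilon. The arrays of alpha, beta and epsilon all lay below those of vector there, and the alpha arrays differed among themselves by more than any other group's on a relative scale. This probe set fell 3.23-fold in alpha (log2 -1.69, SE 0.36, adjusted p = 0.00339) and 2.18-fold in epsilon (log2 -1.13, SE 0.36, adjusted p = 0.0398). It passed the filter on 7 arrays, 6 of them from vector and delta, so it entered the test through the groups where it is high. The epsilon call was lost without vector replicate 1, 2 or 3 (0.103, 0.0973 and 0.0742), epsilon replicate 1 or 2 (0.136 and 0.0797), beta replicate 3 (0.052) or delta replicate 3 (0.0539), and also with no filter (0.0945), with array weights (0.0772) and when the arrays numbered 1 were dropped (0.209). In beta it read -1.01 (adjusted p = 0.0891) and passed without alpha replicate 2 (0.0415), with the floor at the 40th percentile (0.0115), with array weights (0.0346) and with only beta and vector in the fit (0.0204). Alpha was lower than delta by 1.41 (adjusted p = 0.0195), a call lost without alpha replicate 1 or 3 (0.081 and 0.0742) or delta replicate 2 or 3 (0.0999 and 0.0532), with no filter (0.0583), with only those groups in the fit (0.0589) and when the arrays numbered 1 were dropped (0.0962).

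The brightest Atf3 probe set, the first of its 2 r_at probe sets, was not called in any group. It read 2664, 2645 and 3470 units in vector, 1804, 3225 and 3018 in alpha, 2256, 2536 and 2002 in beta, 2086, 2478 and 2274 in delta, and 2368, 2446 and 2254 in epsilon. Its log2 differences from vector were -0.16 in alpha, -0.36 in beta, -0.35 in delta and -0.30 in epsilon (adjusted p = 0.677, 0.281, 0.879 and 0.331), and with array weights the beta value passed (-0.54, adjusted p = 0.0223). The alpha arrays overlapped with those of vector, while beta, delta and epsilon lay below them. The other r_at probe set stayed between 37.29 and 62.26 units, under the floor of 189.652 on all 15 arrays, and has no usable difference. Which of these probe sets follows the Atf3 transcript was not established here, so no direction is given for the gene.

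Ppp1r15a encodes GADD34, the stress-induced subunit that directs a phosphatase to eIF2 and so restores translation. Its signal was 15850, 19480 and 16950 units in vector, 2586, 3132 and 3480 in alpha, 3622, 4923 and 4136 in beta, 13110, 15650 and 13840 in delta, and 2479, 3109 and 3233 in epsilon. The alpha, beta and epsilon arrays, at or under 4923, stood apart from vector and delta, at or over 13110. Ppp1r15a fell 5.71-fold in alpha (log2 -2.51, SE 0.16, adjusted p = 1.03e-08), 4.14-fold in beta (log2 -2.05, SE 0.16, adjusted p = 1.35e-06) and 5.94-fold in epsilon (log2 -2.57, SE 0.16, adjusted p = 7.17e-09). All 3 delta arrays lay below the lowest vector array, but the difference of -0.29 (interval -0.62 to 0.03) was not called (adjusted p = 0.856). The 3 calls held in every fit that left out 1 array.

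Trib3 encodes a pseudokinase that CHOP and ATF4 induce and that restrains ATF4 in turn. Its signal was 2929, 6477 and 4202 units in vector, 813.5, 986.1 and 776 in alpha, 1566, 2029 and 1176 in beta, 3194, 4754 and 4283 in delta, and 136.3, 578.7 and 355.7 in epsilon. The vector arrays varied more than those of any other member gene in that group, with a coefficient of variation of 39.6%, yet every alpha, beta and epsilon array lay below them. Trib3 fell 5.04-fold in alpha (log2 -2.33, SE 0.35, adjusted p = 0.000193), 2.77-fold in beta (log2 -1.47, SE 0.35, adjusted p = 0.0138) and 12.7-fold in epsilon (log2 -3.67, SE 0.35, adjusted p = 1.71e-06), where 1 of the 3 arrays was at the floor. All alpha and epsilon arrays lay under the filter signal of 1092.06, so Trib3 entered the test through the vector, beta and delta arrays, where it is higher. The size in epsilon depends on the floor: with the floor at the 40th percentile the log2 difference was -2.68 (adjusted p = 1.14e-06). The beta call was lost without vector replicate 2 (0.0632) or beta replicate 3 (0.0747), and with no filter (0.0641). In delta it read -0.10, with an interval of -0.84 to 0.65, which is too wide to speak of an unaltered level.

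Asns encodes asparagine synthetase, whose promoter response to amino acid shortage is a textbook case of ATF4 action, and holds the C/EBP-ATF letters shown above. Its brighter probe set read 37750, 36960 and 33810 units in vector, 23960, 22360 and 25120 in alpha, 27180, 30570 and 32990 in beta, 32310, 38230 and 37970 in delta, and 17520, 19290 and 20070 in epsilon. The epsilon arrays lay below those of alpha and these below those of beta, which in turn lay under the lowest vector array. Asns fell by 0.93 on the log2 scale in epsilon (SE 0.12, 1.91-fold, adjusted p = 4.15e-05) and by 0.60 in alpha (SE 0.12, 1.52-fold, adjusted p = 0.00194), and in beta it read -0.26 without passing (adjusted p = 0.196). In delta the difference was -0.003, with an interval of -0.25 to 0.25.

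The f_at probe set of Asns also fell in alpha and in epsilon, by 0.75 and 0.71 on the log2 scale (SE 0.19 each, adjusted p = 0.0139 and 0.0193), from 2710 ± 428 units in vector to 1604 ± 186 and 1657 ± 222 (SD, n = 3). Without vector replicate 1 both calls were lost (0.0748 and 0.0918), as was the alpha call without alpha replicate 3 (0.0599) and the epsilon call without epsilon replicate 3 (0.0844). Neither passed once the arrays numbered 1 were dropped (0.123 and 0.0815).

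**Figure D2:**
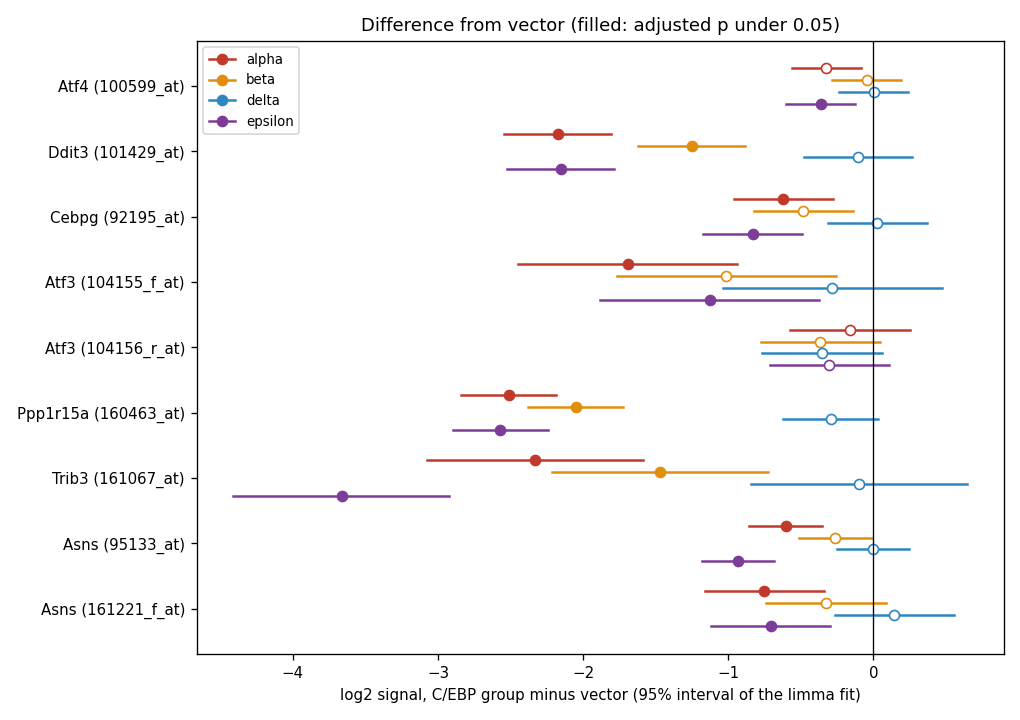
Log2 difference from vector (horizontal axis) of the 9 probe sets in alpha, beta, delta and epsilon; points are estimates of the limma fit, bars are 95% intervals, and filled points have an adjusted p under 0.05. The intervals of delta all include 0, while those of Ppp1r15a in alpha, beta and epsilon lie wholly under -1.72 and that of Trib3 in epsilon runs from -4.41 to -2.92.

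The 4 C/EBPs were then set against each other, in 6 pairs, since a call in 1 group and not in another does not show that the groups differ. Delta differed from alpha and from epsilon in the same 5 genes, Ddit3, Cebpg, Ppp1r15a, Trib3 and Asns, all higher in delta. Over all probe sets, 8.40% differed between alpha and delta and 8.21% between delta and epsilon, in either direction. Ddit3 was lower in alpha than in delta by 2.07 on the log2 scale (SE 0.18, adjusted p = 5.91e-07) and Ppp1r15a by 2.22 (SE 0.16, adjusted p = 7.72e-08). Against epsilon, delta was higher by 3.57 for Trib3 (SE 0.35, adjusted p = 3.92e-06), 2.28 for Ppp1r15a and 0.93 for Asns. With the floor at the 40th percentile the Trib3 difference was 2.58. Cebpg was 0.86 higher in delta than in epsilon (adjusted p = 0.00256) and 0.65 higher than in alpha (adjusted p = 0.0183). Atf4 read 0.37 between delta and epsilon (adjusted p = 0.057), and passed with no further scaling (0.0108), the median ratio (0.0106), no filter (0.0287) and array weights (0.0189). The call of Cebpg against alpha was lost without alpha replicate 2 (0.0889), delta replicate 2 (0.0764) or delta replicate 3 (0.105).

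Beta lay between these levels. Ddit3, Ppp1r15a and Trib3 were lower in beta than in delta, by 1.15, 1.76 and 1.37 on the log2 scale (adjusted p = 0.000835, 5.32e-06 and 0.0311), where 4.77% of all probe sets differed. The Trib3 call was lost without beta replicate 1 or 3 (0.0762 and 0.142) or delta replicate 2 or 3 (0.131 and 0.11), with the floor at the 10th percentile (0.065) and with no filter (0.121). Ddit3 was lower in alpha than in beta by 0.92 (SE 0.18, adjusted p = 0.00488), the 1 member gene called in that pair, against 2.86% of all probe sets. Without the arrays numbered 1 this Ddit3 difference was not called (0.0597). In epsilon Ddit3, Trib3 and Asns were lower than in beta by 0.90, 2.19 and 0.67 (adjusted p = 0.00834, 0.00182 and 0.00409), beside 2.34% of all probe sets. With the floor at the 40th percentile that Trib3 difference was 1.21 (adjusted p = 0.0153). With only beta and epsilon in the fit, Trib3 and Asns missed the threshold there (0.0596 and 0.0641). Ppp1r15a read 0.52 higher in beta than in epsilon and was not called (adjusted p = 0.105), though it passed with quantile normalization (0.0155), no further scaling (0.0145), the median ratio (0.0244) and array weights (0.0236). For Cebpg, beta minus delta was -0.51 (adjusted p = 0.0883) and passed with quantile normalization (0.0454), no further scaling (0.0498), array weights (0.0046), blocking on the replicate number (0.0336) and without delta replicate 1 (0.0337).

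Alpha and epsilon differed in none of the 7 genes (0 called by limma, 2 at an unadjusted p under 0.05), and 1.31% of all probe sets differed between them. The interval of the difference was -0.39 to 0.35 for Ddit3, -0.27 to 0.39 for Ppp1r15a and -0.13 to 0.55 for Cebpg. Trib3 was 1.33 higher in alpha (interval 0.59 to 2.08, adjusted p = 0.0893) and Asns 0.33 higher (interval 0.08 to 0.58, adjusted p = 0.276), with no overlap between the arrays of these groups. Trib3 passed without epsilon replicate 2 (0.0187), with no further scaling (0.0347), with scaling by the median ratio (0.0467) and with array weights (0.0338), and Asns with no further scaling (0.0476). With the floor at the 40th percentile the Trib3 difference shrank to 0.35 (adjusted p = 0.74), and without epsilon replicate 1 it was 0.91 (0.242). The moderated F-test across the 5 groups called 6 of the 7 genes, all but Atf3, where it called 16.5% of all probe sets, and Atf4 had the highest adjusted p among the 6 (0.0435).

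**Figure D3:**
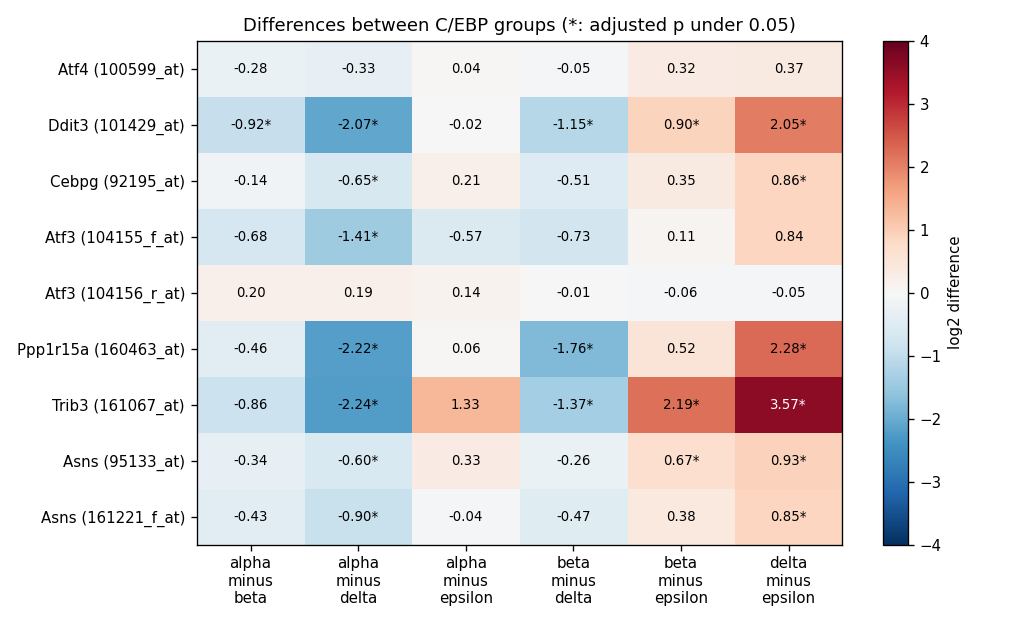
Log2 difference of the first minus the second C/EBP group (colour and number) for 9 probe sets (rows) in 6 pairs of C/EBPs (columns), with an asterisk for an adjusted p under 0.05. The column of alpha minus epsilon has no asterisk, and the columns that contain delta hold differences as large as -2.24 and 3.57.

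Ordered by group mean, epsilon was lowest and alpha next for Ddit3, Cebpg, Ppp1r15a, Trib3, Asns by its brighter probe set, and Atf4, followed by beta in each of these 6 genes. Vector and delta held the highest places, with delta above vector for Cebpg and Atf4 and below it for the other 4. Between the neighbours epsilon and alpha, and between delta and vector, no difference passed the adjusted threshold, although the arrays of alpha lay above those of epsilon for Trib3 and Asns and those of delta below vector for Ppp1r15a. The step from alpha to beta passed for Ddit3, and that from beta to delta for Ddit3, Ppp1r15a and Trib3.

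Zinc was given to all groups, and genes known to respond to metals moved with some of these groups. They were chosen after their values were seen. The metallothionein gene Mt2 read 155300 ± 17100 units in vector, 101100 ± 21000 in alpha, 87700 ± 7600 in beta, 130600 ± 3310 in delta and 114000 ± 14800 in epsilon. The zinc exporter gene Slc30a1 read 2183 ± 37.3, 1172 ± 228, 1080 ± 149, 1899 ± 88.3 and 1378 ± 73.4 in the same order. The other metallothionein gene, Mt1, read 158200 ± 19900, 120300 ± 23700, 109600 ± 19200, 130000 ± 5510 and 123500 ± 26200. Hmox1, the haem oxygenase gene induced by metals and oxidants, read 99720 ± 2200, 17160 ± 2490, 28190 ± 7530, 84970 ± 10400 and 14570 ± 1630. Mt1, Mt2 and Slc30a1 were lowest in beta, while Hmox1 was lowest in epsilon and had the group order of Ddit3. The part of zinc exposure in the stress gene differences was not tested.

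The genes of the switch at the head of the pathway showed few differences in transcript level, and the phosphorylation of eIF2 was not measured. Of 18 genes for eIF2 kinases, eIF2 and eIF2B subunits and their regulators, 12 passed the filter. The eIF2 subunit gene Eif2s1 had no probe set assigned to it alone, and the kinase gene Eif2ak3 failed the filter. In every C/EBP group 0 of the 12 were lower. The shares of all probe sets called lower were 7.15%, 4.18%, 0% and 6.91% in alpha, beta, delta and epsilon, so 0 of 12 is near them. The 1 call was Eif2b1, a subunit of the exchange factor eIF2B, higher in alpha (2837 ± 185 to 4250 ± 312, log2 0.58, adjusted p = 0.0408), where 7.17% of all probe sets were called higher. That call was lost in 8 of the 15 fits without 1 array, namely those without any 1 array of vector (0.121, 0.0586 and 0.0985) or alpha (0.0676, 0.0794 and 0.138), beta replicate 3 (0.0538) or delta replicate 3 (0.0536). It was lost, too, with no filter (0.0932), with no trend (0.058) and when the arrays numbered 1 were dropped (0.128). The list's median was 0.13 in alpha, 0.07 in beta, -0.08 in delta and 0.08 in epsilon. Ppp1r15b, the constitutive counterpart of Ppp1r15a, read 0.08 in epsilon (adjusted p = 0.744).

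Genes that supply amino acids, many of them known ATF4 targets, fell alongside Asns. Of 20 listed, 12 passed the filter; 5 fell in alpha, 3 in beta, 0 in delta and 8 in epsilon, and 0 rose. Among all probe sets tested, 7.15%, 4.18%, 0% and 6.91% were called lower in alpha, beta, delta and epsilon. Called higher were 7.17%, 5.13%, 0.359% and 9.38%. The epsilon count of the list was 5 without vector replicate 2 or epsilon replicate 3. The list's median was -0.31 in alpha, -0.27 in beta, -0.04 in delta and -0.58 in epsilon. Psph, for the last step of serine synthesis, fell from 14080 ± 257 units to 5439 ± 427 in alpha, 8765 ± 711 in beta and 5124 ± 267 in epsilon (log2 -1.38, -0.69 and -1.46, adjusted p = 1.47e-07, 0.000621 and 7.48e-08). Slc3a2, the shared heavy chain of several amino acid exchangers, fell from 30260 ± 7680 to 12180 ± 434 in alpha, 16310 ± 1210 in beta and 13190 ± 2180 in epsilon (adjusted p = 4.89e-05, 0.00354 and 0.000131). Its partner Slc7a5, which carries leucine, fell in epsilon from 12990 ± 1620 to 7176 ± 224 (log2 -0.85, adjusted p = 0.000274). Aldh18a1, of proline synthesis, fell there by 0.93 (adjusted p = 0.00281).

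Further calls in that list were the glycine carrier gene Slc6a9 in alpha (-0.97, adjusted p = 0.00217), beta (-0.72, adjusted p = 0.0267) and epsilon (-0.59, adjusted p = 0.0457). The neutral amino acid carrier gene Slc1a4 was called in alpha (-0.87, adjusted p = 0.0098) and epsilon (-0.84, adjusted p = 0.0122). Bcat1 fell in alpha and epsilon (-0.68 and -0.56, adjusted p = 0.00729 and 0.0236), and Psat1 in epsilon (-0.48, adjusted p = 0.0154). These epsilon calls and that of Bcat1 in alpha were not followed singly through the alternatives. The beta call of Slc6a9 was lost without vector replicate 1 or 2 (0.0978 and 0.0653) or beta replicate 2 or 3 (0.101 and 0.062), with no filter (0.0766) or when the arrays numbered 1 were dropped (0.0544). The alpha call of Slc1a4 was lost without vector replicate 2 (0.0519) or alpha replicate 2 (0.0529).

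Aminoacyl-tRNA synthetases load amino acids onto tRNAs, and several are ATF4 targets. All 13 genes of this list, which includes the tRNA exporter Xpot, passed the filter; 6 fell in alpha, 4 in beta, 0 in delta and 6 in epsilon, and 0 rose. The beta count was 1 without vector replicate 2 or beta replicate 1, and 2 without vector replicate 1 or 3, beta replicate 2 or 3, alpha replicate 1, any delta array or epsilon replicate 3. Beside these counts, 7.15%, 4.18%, 0% and 6.91% of all probe sets were called lower in alpha, beta, delta and epsilon. Called higher were 7.17%, 5.13%, 0.359% and 9.38%. The list's median was -0.49 in alpha, -0.22 in beta, -0.11 in delta and -0.26 in epsilon. The alanine enzyme gene Aars fell from 13250 ± 1960 units to 6023 ± 369 in alpha, 8270 ± 932 in beta and 5154 ± 622 in epsilon (log2 -1.13, -0.68 and -1.36, adjusted p = 2.62e-05, 0.00526 and 3.98e-06), and the beta call was lost when the arrays numbered 1 were dropped (0.0827). Nars, for asparagine, fell by 1.21 in alpha and by 1.49 in epsilon (adjusted p = 0.000161 and 2.19e-05), from 6534 ± 830 to 2869 ± 688 and 2342 ± 383. In beta Nars fell by 0.64 (adjusted p = 0.0322), a call lost in 4 of the 15 fits without 1 array (0.0524 to 0.124). It was also lost with no filter (0.0766) and when the arrays numbered 1 were dropped (0.198). Gars, for glycine, fell by 0.83 in alpha and 0.85 in epsilon (adjusted p = 0.00637 and 0.00584). In beta Gars fell by 0.65 (adjusted p = 0.043), a call lost in 11 of the 15 fits without 1 array (0.0506 to 0.157). Sars, for serine, read 8191 ± 1440 in vector and 3351 ± 2180 in epsilon, a call (adjusted p = 0.0205) that was lost without vector replicate 3 (0.0797), with no filter (0.0988) and with only those groups in the fit (0.0791). The log2 difference of Sars was -1.62, but -0.83 without epsilon replicate 1 (0.0333) and -0.96 when the arrays numbered 1 were dropped (0.00645).

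Among other genes induced by ATF4 or CHOP, more fell than rose in alpha, beta and epsilon. Of 22 listed, 14 passed the filter. In alpha 6 fell and 1 rose, in beta 5 fell, in delta 0 changed, and in epsilon 7 fell and 1 rose. The shares of all probe sets called higher were 7.17%, 5.13%, 0.359% and 9.38% in alpha, beta, delta and epsilon. With 14 genes, the counts of higher genes are near these shares. The shares called lower were 7.15%, 4.18%, 0% and 6.91%. The beta count was 3 without vector replicate 1 or 2 and 2 without beta replicate 1. The list's median was -0.55 in alpha, -0.52 in beta, -0.16 in delta and -0.62 in epsilon. Atf5, a relative of ATF4 that is also controlled at translation, fell from 4200 ± 923 units to 2220 ± 525 in alpha and 1810 ± 275 in epsilon (log2 -0.92 and -1.20, adjusted p = 0.00912 and 0.0014). Sqstm1, an autophagy receptor, fell from 34810 ± 731 to 18460 ± 2840 in alpha and 17650 ± 2730 in epsilon (log2 -0.93 and -0.99, adjusted p = 0.00117 and 0.000765). In beta Sqstm1 fell by 0.74 (adjusted p = 0.0108), a call lost without beta replicate 1 (0.0549) or when the arrays numbered 1 were dropped (0.0573). Gadd45a, a growth arrest gene, fell by 1.26 in beta, 1.21 in epsilon and 0.605 in alpha (adjusted p = 0.00012, 6.67e-05 and 0.0172). Ero1a, an oxidase of the endoplasmic reticulum that CHOP is known to induce, rose from 7124 ± 1720 to 15230 ± 1210 in alpha and 13400 ± 451 in epsilon (log2 1.13 and 0.94, adjusted p = 6.06e-05 and 0.000396). Its other probe set rose by 1.09 and 0.97. Ero1a thus went opposite to Ddit3 in both groups.

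In each C/EBP group, most of the tested bZIP genes whose products can pair with ATF4, CHOP or C/EBPγ were not called. In alpha and beta more of them fell than rose. Of 23 listed, 17 passed the filter. In alpha 5 fell and 2 rose, in beta 3 fell, in delta 0 changed, and in epsilon 4 fell and 3 rose. All probe sets tested gave shares of 7.15%, 4.18%, 0% and 6.91% lower in alpha, beta, delta and epsilon. Their shares called higher were 7.17%, 5.13%, 0.359% and 9.38%. With 17 genes, the counts of higher genes are not far from these shares. In alpha 3 fell without vector replicate 2 or 3, and in epsilon 1 rose without vector replicate 1 or 3 or epsilon replicate 2 or 3. The list's median was -0.27 in alpha, -0.24 in beta, 0.03 in delta and -0.26 in epsilon. Fos, an AP-1 subunit, fell from 9784 ± 3060 units to 819.2 ± 205 in alpha, 1951 ± 316 in beta and 618.5 ± 33.6 in epsilon (log2 -3.56, -2.29 and -3.94, adjusted p = 8.06e-09, 5.87e-06 and 2.68e-09). Junb, its partner, fell by 1.34 in alpha and 1.09 in epsilon (adjusted p = 4.7e-05 and 0.000396). The other Junb probe set fell further (log2 -1.81 and -2.42, limma adjusted p = 0.000156 and 8.38e-06), so the size depends on the probe set. In beta Junb fell by 0.77 (adjusted p = 0.00964), a call lost without beta replicate 1 (0.0521). Nfil3, a bZIP repressor, rose by 1.41 in alpha (adjusted p = 0.000179), from 1381 ± 265 to 3669 ± 651. Fosl1 fell by 0.80 in beta (adjusted p = 0.000266).

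The arms of the unfolded protein response that run through ATF6 and XBP1 do not pass through eIF2. Most of their tested genes were not called, but in alpha, beta and epsilon more rose than fell. Of 18 listed, 13 passed the filter. In alpha 3 rose and 1 fell, in beta 2 rose and 1 fell, in delta 0 changed, and in epsilon 5 rose and 1 fell. Over all probe sets, 7.17%, 5.13%, 0.359% and 9.38% were called higher in alpha, beta, delta and epsilon. With all arrays in the fit, the list's share of higher genes was above these in alpha, beta and epsilon. Of all probe sets, 7.15%, 4.18%, 0% and 6.91% were called lower, so 1 of 13 lower is near those shares. The epsilon count of higher genes was 2 without vector replicate 1 and 3 without vector replicate 3 or epsilon replicate 2 or 3. Without vector replicate 1, 1 rose in alpha; in beta 1 rose without vector replicate 1 or 3 or beta replicate 2 or 3, and 0 fell without vector replicate 3 or beta replicate 2. The list's median was 0.46 in alpha, 0.34 in beta, 0.04 in delta and 0.51 in epsilon. Pdia6, a disulphide isomerase, rose from 4224 ± 411 units to 8364 ± 1560 in alpha, 9379 ± 1940 in beta and 7605 ± 751 in epsilon (log2 0.97, 1.14 and 0.85, adjusted p = 0.000507, 0.000275 and 0.00186), although 1 of its other probe sets missed the threshold in alpha and epsilon (0.0602 and 0.0674). Xbp1, the transcription factor of the IRE1 arm, rose in epsilon by 0.68 (adjusted p = 0.00275), a call lost without the arrays numbered 1 (0.0609). In alpha Xbp1 rose by 0.56 (adjusted p = 0.0097), a call lost without vector replicate 1 (0.0532) or when those arrays were dropped (0.157). The member that fell was Dnajb9, a co-chaperone and known XBP1 target, from 3880 ± 618 to 1376 ± 504 in alpha and 1386 ± 376 in epsilon (log2 -1.54 and -1.51, adjusted p = 0.000455 and 0.000669). In beta Dnajb9 fell by 1.05 (adjusted p = 0.0154), a call lost in 2 of the 15 fits without 1 array (0.0756 and 0.0795) and with no filter (0.0633). Its other probe set missed the threshold in beta (log2 -0.80, limma adjusted p = 0.0933). That probe set was called lower in alpha and epsilon (log2 -0.975 and -1.25, adjusted p = 0.0294 and 0.00638). Hspa5, the chaperone BiP, read -0.25 in epsilon and was not called (adjusted p = 0.245).

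**Figure D4:**
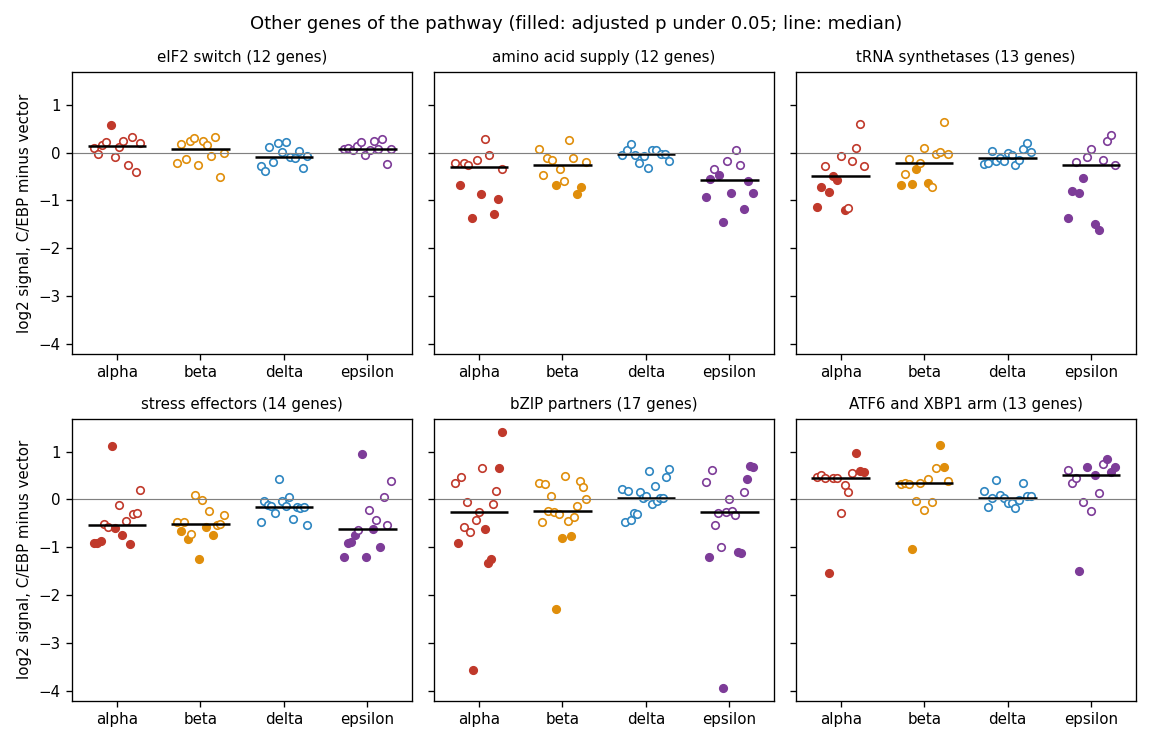
Log2 difference from vector (vertical axis) of each gene past the filter in 6 lists, for alpha, beta, delta and epsilon; each point is 1 gene, filled where its adjusted p is under 0.05, and the line is the list's median. The median of the amino acid supply genes is -0.58 in epsilon and that of the ATF6 and XBP1 arm 0.51, and no point of delta is filled.

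The genes outside the 7 whose log2 signal followed that of Ddit3 most closely over the 15 arrays were Fos, Gadd45g, Procr, Psph and Gadd45b, with Pearson correlations of 0.98, 0.978, 0.976, 0.976 and 0.971. Gadd45g and Gadd45b are stress genes of the Gadd45 family, Procr encodes the protein C receptor, and Psph is the serine enzyme described above. Procr read 18210 ± 1610 units in vector, 2939 ± 173 in alpha, 5299 ± 358 in beta, 16430 ± 851 in delta and 2806 ± 304 in epsilon, the order of Ddit3. For Cebpg they were Cenpv, Sh3gl3, Atp6v1d, Gadd45b and Wipi2, at 0.927, 0.926, 0.923, 0.921 and 0.92. Atp6v1d, a subunit of the vacuolar proton pump, read 7703 ± 498 in vector, 5739 ± 710 in alpha, 6516 ± 81.8 in beta, 7239 ± 720 in delta and 5365 ± 860 in epsilon. The arrays of a group share their culture conditions and the groups stand apart, so these correlations mainly restate the group levels and carry no p-value.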

How the data were processed

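The deposited values are linear intensity (signal) per probe set; per the labels' protocols, the authors scanned MG_74Av2 arrays and analysed the images with Affymetrix Microarray Suite 5.0. All arrays had a 2% trimmed mean of 2501.12 to 2501.39, so the deposited intensities had been brought to a common mean. No detection calls came with them, and precision is limited by the number of arrays. The annotation used by the authors is not given in the sources used here.

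Control probe sets (66 of 12488) were dropped. Arrays were brought to the same median (1092.06), signals under the pooled 20th percentile (189.652) were set to that floor, and values were converted to log2. The 6963 probe sets over 1092.06 on at least 3 of the 15 arrays were tested. Signals in the text are scaled and not floored, with SD over 3 arrays; SE and 95% intervals are those of the fit. Platform annotation named 1 gene for 10833 probe sets, several for 396 and none for 1193. A single limma 3.58.1 model (R 4.3.3; lmFit, eBayes with trend) held the arrays of all groups and was checked on simulated data. Its two-sided p-values were adjusted per contrast (Benjamini-Hochberg, all tested probe sets, threshold 0.05). The members, lists and tests were chosen with earlier results of these data known. Up to 4 genes per contrast were first named from each list. They were ranked by size among those called with no overlap between their arrays and those of vector. Others are named as background, as contrast or to add further calls, and were chosen after their values were seen. For likeness, the 5 genes with the highest correlation were named. A gene was read by its brightest probe set past the filter. The labels speak of triplicate clones and of polyclonal transfectants, and cultures of a group may share a transfection. The p-values reflect the spread within groups, pooled over the arrays of the fit and moderated across probe sets. They may not cover the spread between separate transfections. Alternatives were 3 other scalings, 2 floors, 2 filters, a variance model with no trend, weights per array, blocking on the replicate number (given in the closing section, and in the report for beta against delta, where same-numbered arrays deviated together with correlations of 0.413, 0.309 and 0.124), fits of a contrast's own groups, fits without 1 array or without the 5 arrays numbered 1, and the univariate F-test named in the labels. Promoter sequences are RefSeq's (GRCm38.p6).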

Additional observations from a re-analysis of the deposited data

How the results depend on the processing

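Over 12 alternatives, the 90 member results (9 probe sets in 10 contrasts) gave 1080 values, of which 1018 kept direction and side of the threshold, 19 lost a call, 43 gained one and 0 called values changed sign; 25 uncalled ones did. In the 15 fits that left out 1 array, 1311 of 1350 values kept both, 35 lost a call and 4 gained one. Where a call changed, the cause was not tested, unless fewer arrays or another set of probe sets entered the fit.

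Counts of member genes called moved in these cases. In alpha against beta, 1 became 2 with quantile normalization, no further scaling or array weights, 3 with the replicate block and 0 without the arrays numbered 1. In alpha against epsilon, 0 became 2 with no further scaling and 1 with the median ratio, array weights or the replicate block. In beta against vector, 3 became 5 with array weights, and in beta against epsilon 3 became 1 with only those groups in the fit. Leaving out 1 array gave 0 to 1 in alpha against epsilon, 4 to 6 in alpha, 2 to 3 in beta and 5 to 6 in epsilon against vector.

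Counts of all probe sets called against vector were 997 in alpha, 648 in beta, 25 in delta and 1134 in epsilon, and 1149 by the F-test. Delta became 39 with quantile normalization. Array weights gave 1576 in beta, 74 in delta, 1730 in epsilon and 2442 by the F-test. Only the groups of a contrast gave 15 in delta and 690 in epsilon. Without the arrays numbered 1 the counts were 642, 348, 11 and 692, and 685 by the F-test, from fewer arrays. Leaving out 1 array gave 743 to 1029 in alpha, 372 to 694 in beta (420 without vector replicate 3, 418 without beta replicate 2, 372 without beta replicate 3), 13 to 29 in delta (13 without delta replicate 2) and 751 to 1151 in epsilon (751 without vector replicate 3). The replicate block gave 1099 in beta, 44 in delta and 1820 by the F-test. Same-numbered arrays of different groups deviated together in 20 of 30 pairs (correlation over 0.1, range -0.069 to 0.439), and 13 of 15 arrays matched their own number best. This is a hint from the data and not the design, so the main fit did not pair the numbers in any contrast. Between beta and delta all 3 correlations were over 0.1 (0.413, 0.309 and 0.124), and there the blocked value stands beside the main one. That choice was made from the same data. In other comparisons the block called Atf4 in alpha (0.0214), Cebpg (0.0306) and Atf3 by its f_at probe set (0.0438) in beta, Ppp1r15a (0.0176) and Asns (0.0442) between alpha and beta, Atf4 between alpha and delta (0.0279) and between delta and epsilon (0.0145), Trib3 between alpha and epsilon (0.00568) and Ppp1r15a between beta and epsilon (0.00978), each with limma adjusted p over 0.05 without it. It ended no call of a member probe set.

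Signal limits Atf3, whose f_at probe set passed the filter on 7 arrays, and Trib3, which passed on 9.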
